A study of Mus musculus with 24 samples.

Results

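The genes described here encode the enzymes and carriers by which liver mitochondria burn fatty acids and make ketone bodies. They are 30 named genes, found by symbol among the 18171 genes of the deposited liver table, and all 30 were measured and passed the filter on low values. The members were set by name and not by a cut on their values, but with earlier results of these data known. In livers that overexpressed L2d13, 15 of the 30 rose and 1 fell against wild-type (WT) livers. Of all tested genes, 25.9% rose and 4.86% fell. Without the 7 libraries in which 1 fragment was worth most FPKM, 9 members rose, against 14.9% of all genes then tested. With median-of-ratios scaling 10 rose, against 12.3% of all genes. The gatekeeper Cpt1a rose most, and the kinase gene Pdk4 was the member that fell.

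Liver RNA came from C57BL/6 mice in 4 groups of 6 libraries: L2d13 set 2, L2d13 set 4, WT set 2 and WT set 4. L2d13 is the overexpressed form written L2 delta13 in the series title. That name is in use for a form of lysyl oxidase like 2 (Loxl2), a secreted enzyme that crosslinks collagen, but L2 is spelled out in none of the labels. Set 2 and set 4 are named here after a digit in the sample names; what it stands for is not given in the sources used here. The promoter or vector behind the overexpression, the age and sex of the mice, their feeding state and whether each library is a separate animal are not given in the sources used here. P-values therefore refer to the spread among these libraries, part of which can be technical.

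Fatty acids are activated to acyl-CoA at the outer mitochondrial membrane and cross inwards as carnitine esters. A spiral of dehydrogenation, hydration, renewed dehydrogenation and thiolysis then shortens them, and its electrons pass through the electron transfer flavoprotein to the respiratory chain. In the liver of a fasting animal much of the resulting acetyl-CoA becomes the ketone bodies acetoacetate and beta-hydroxybutyrate, which other organs burn. Many of these genes are known targets of the nuclear receptor PPARA.

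Values are FPKM (fragments counted relative to transcript length and to the fragments mapped in the library). They carry no read totals, so the depth of each library is unknown. Library sums of FPKM ran between 550260 and 722980. Low FPKM values move in steps, and the step gives the FPKM that 1 fragment is worth in a library relative to the others. It was more than 2% above the median library in 7 libraries, where it ran between 1.03 and 1.29 of it, against 0.940 to 1.01 in the other 17. The 7 were L2d13 set 2 replicate 3, L2d13 set 4 replicate 11, WT set 2 replicate 6 and WT set 4 replicates 9 to 12. Long transcripts read low in them: the slope of the log2 deviation over log2 transcript length was between -0.11 and -0.06 in the 7 and between -0.08 and 0.11 in the 17. As 5 of the 7 are WT, results are given with and without them. Of 8 hepatocyte markers all were tested, and their summed FPKM was 33116 to 62814 in L2d13 and 54470 to 66189 in WT. Loxl2 itself averaged 1.501 ± 0.384 FPKM in L2d13 and 0.680 ± 0.254 FPKM in WT, and its annotated pseudogene copy Gm21451 averaged 172 ± 69.3 FPKM in L2d13 and 0.240 ± 0.339 FPKM in WT (SD, n = 12 each).

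**Figure D1:**
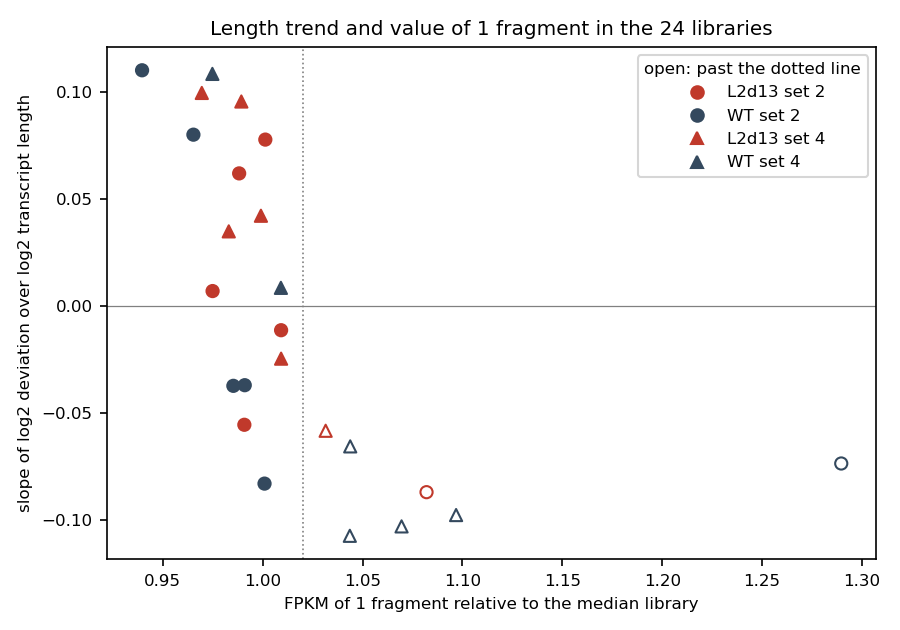
The FPKM worth of 1 fragment relative to the median library (x axis) is plotted against the slope of log2 deviation over log2 transcript length (y axis) for the 24 libraries, with 1 point per library. The 7 open points right of the dotted line all lie below a slope of 0, and 4 of them are WT set 4 libraries.

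Over both sets, 15 of the 30 members were higher in L2d13 than in WT at an adjusted p under 0.05, against 25.9% of all 10532 tested genes, and 1 was lower, against 4.86%. The test was limma on log2(FPKM + 1) with terms for set and genotype and Benjamini-Hochberg adjustment over all tested genes. Differences and folds below are on this log2(FPKM + 1) scale, L2d13 minus WT. The median difference of the members was 0.31, against 0.12 over all tested genes, and 28 of the 30 differences were positive. The median of all tested genes was thus itself above 0, and their share of positive differences is not given here. With median-of-ratios scaling, which sets the median of all genes at 0.01, the median of the members was 0.17. Members were called in all but 1 of 8 groups by role. None of 4 genes of acyl-CoA activation and hydrolysis was called. Of the carnitine shuttle and malonyl-CoA control 5 of 6 genes were, of the acyl-CoA dehydrogenases 4 of 6, and of ketone synthesis both. Of those 5, Cpt1a was kept without the 7 libraries, and Cpt1a and Crat with median-of-ratios scaling. In bulk liver RNA, fewer cells of a type and less RNA per cell cannot be told apart.

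**Figure D2:**
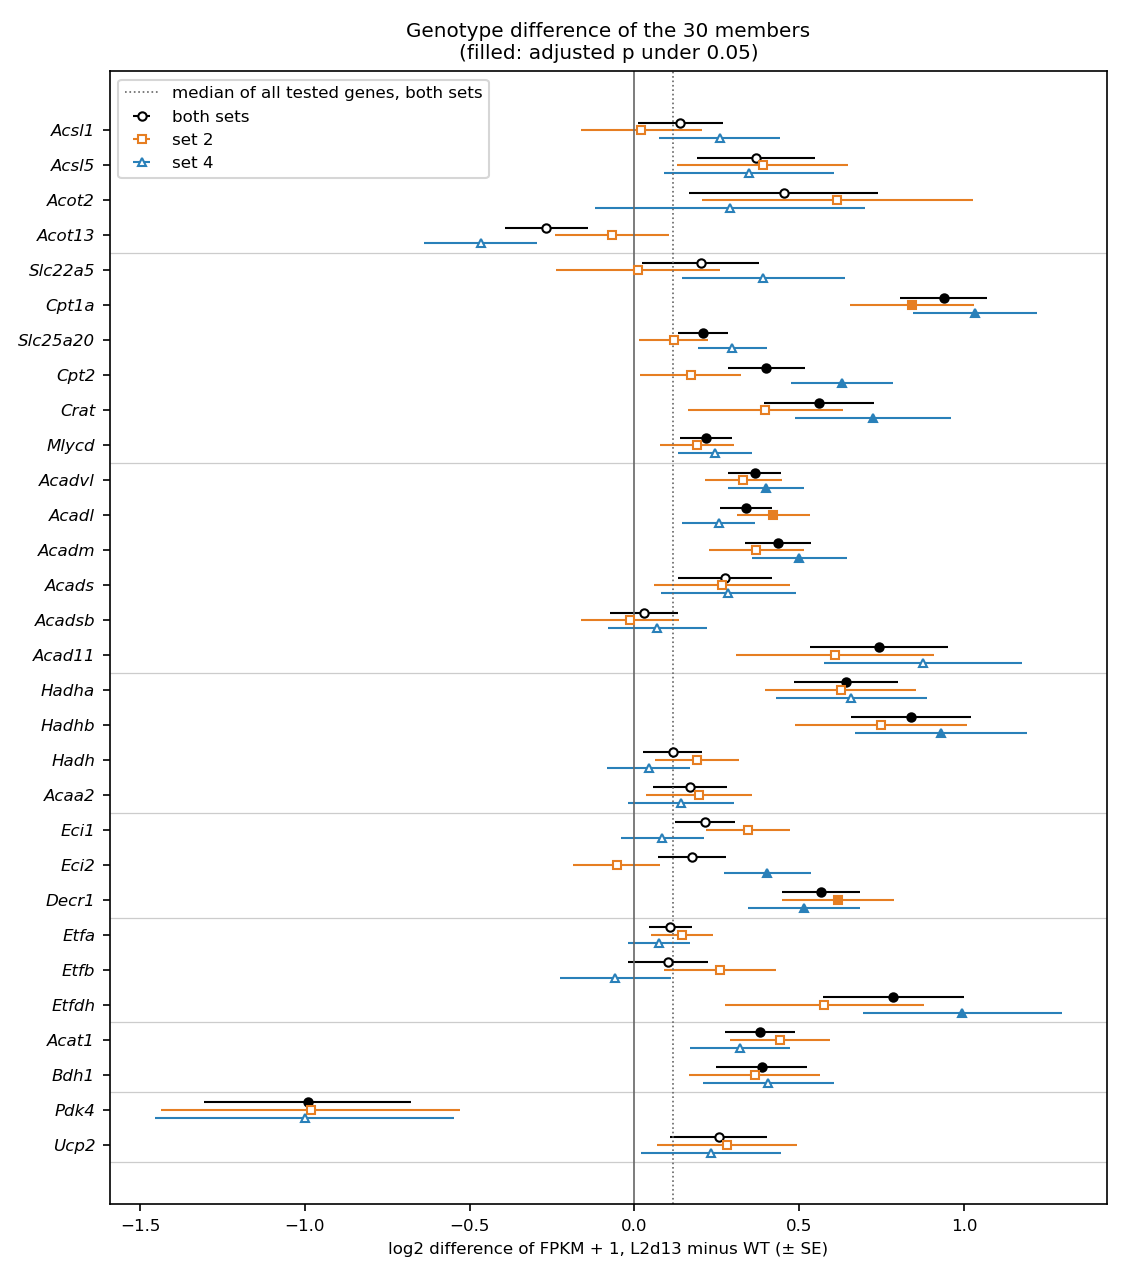
The log2 difference of FPKM + 1, L2d13 minus WT, is shown on the x axis with its standard error for each of the 30 members, grouped by role, over both sets (circles), in set 2 (squares) and in set 4 (triangles). Filled symbols passed an adjusted p of 0.05 and the dotted line is the median of all tested genes; over both sets Cpt1a lies furthest right at 0.94 and Pdk4 furthest left at -0.99.

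Of all members Cpt1a rose most. The 6 genes of the carnitine shuttle and malonyl-CoA control had a median difference of 0.31, that of all members. Cpt1a (gene 12894, chromosome 19) encodes the carnitine palmitoyltransferase of the outer membrane, which malonyl-CoA inhibits and which sets the pace of the pathway. Its lowest, median and highest FPKM were 166, 217 and 259 in L2d13 set 2, against 72.6, 123 and 165 in WT set 2. In set 4 they were 149, 199 and 232 in L2d13, against 78.5, 79.6 and 149 in WT. Every L2d13 library of set 2 lay above every WT library of set 2, which 5.44% of all tested genes also showed (0.56% the other way), while in set 4 the groups met at 149. The difference over both sets was 0.94 ± 0.13 (SE), or 1.92-fold (limma with Benjamini-Hochberg adjustment, adjusted p = 1.8e-05), and each of the 12 L2d13 libraries exceeded the WT mean within its set. Cpt1a was the only member without overlap in set 2; in set 4 no member was, against 4.86% of all genes for L2d13 above WT and 1.7% for L2d13 below it.

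The 250 bases before the Cpt1a start in the RefSeq promoter table (GRCm38.p6, chr19:3323051-3323300, plus strand) are shown because Cpt1a led the members and its window held a hexamer of the kind that PPARA and related receptors bind. Capitals mark that hexamer, AGGTCA read on the opposite strand, which begins 94 bases before the start.
Cpt1a: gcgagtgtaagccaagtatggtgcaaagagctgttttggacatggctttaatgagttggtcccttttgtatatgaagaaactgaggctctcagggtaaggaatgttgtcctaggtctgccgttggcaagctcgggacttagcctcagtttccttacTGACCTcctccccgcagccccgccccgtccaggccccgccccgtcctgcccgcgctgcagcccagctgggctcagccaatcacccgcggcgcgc

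The inner-membrane partner Cpt2 (gene 12896, chromosome 4), which turns acylcarnitines back into acyl-CoA, rose less. Its lowest, median and highest FPKM were 68.6, 101.1 and 118 in L2d13 set 2, against 70.1, 85.6 and 104 in WT set 2, and 82.4, 103 and 117 in L2d13 set 4, against 51.8, 56.9 and 93.9 in WT set 4. The groups overlapped widely in set 2, and in set 4 the WT library at 93.9, replicate 8, was the one inside the L2d13 range. The difference was 0.40 ± 0.12 over both sets (limma with Benjamini-Hochberg adjustment, adjusted p = 0.0112), with 0.17 ± 0.15 in set 2 and 0.63 ± 0.15 in set 4.

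Crat (gene 12908, chromosome 2) encodes carnitine acetyltransferase, which buffers acetyl-CoA as acetylcarnitine. Its lowest, median and highest FPKM were 41.6, 64.99 and 72.3 in L2d13 set 2, against 30.3, 49.9 and 67.5 in WT set 2. In set 4 they were 40.02, 56.3 and 71.2 in L2d13, against 20.8, 31.9 and 69.2 in WT. In set 2 WT replicates 2, 3, 5 and 6 lay inside the L2d13 range, and in set 4 WT replicate 8 did. The difference was 0.56 ± 0.17 (limma with Benjamini-Hochberg adjustment, adjusted p = 0.0129). Slc25a20, the carnitine-acylcarnitine exchanger of the inner membrane, and Mlycd, which breaks down the inhibitor malonyl-CoA, rose by 0.21 ± 0.08 and 0.22 ± 0.08, with limma adjusted p-values of 0.0375 and 0.038. Slc25a20 averaged 113 ± 12.9 FPKM in L2d13 and 97.5 ± 11.3 FPKM in WT, and Mlycd averaged 57.8 ± 7.58 FPKM in L2d13 and 49.6 ± 6.05 FPKM in WT (SD, n = 12 each). Each lost its call when any of 11 single libraries was left out. The carnitine importer Slc22a5 had 0.20 ± 0.18 and was not called; its highest libraries were WT set 2 replicate 6 at 71.25 FPKM, WT set 4 replicate 8 at 59.9 FPKM and WT set 2 replicate 2 at 58.9 FPKM.

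None of the genes of activation and hydrolysis was called by limma. Acsl1, the main long-chain acyl-CoA synthetase of liver and in WT livers the most abundant member, averaged 575 ± 125 FPKM in L2d13 and 526.2 ± 133 FPKM in WT (SD, n = 12 each), a difference of 0.14 ± 0.13. Acsl5, another synthetase, averaged 104 ± 27.7 FPKM in L2d13 and 82.1 ± 25.9 FPKM in WT, with 0.37 ± 0.18. The thioesterases, which release fatty acids from CoA, pointed apart without a call: Acot2 had 0.45 ± 0.29 and Acot13 had -0.27 ± 0.13. Acot2 has close paralogues beside it on chromosome 12, among them Acot1, and how reads shared with them were counted is not given in the sources used here.

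Acyl-CoA dehydrogenases open each turn of the spiral, and each prefers a range of chain lengths. Acadvl (very long chains) rose by 0.37 ± 0.08 and Acadl (long chains) by 0.34 ± 0.08, with limma adjusted p-values of 0.00153 and 0.00232. Acadvl averaged 231 ± 22.1 FPKM in L2d13 and 180.5 ± 30.1 FPKM in WT, with all 12 L2d13 libraries higher than the mean of WT within the set. Acadl averaged 134 ± 20.3 FPKM in L2d13 and 106 ± 13.2 FPKM in WT (SD, n = 12 each).

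Acadm (gene 11364, chromosome 3), the medium-chain dehydrogenase, had a lowest, median and highest FPKM of 191, 273 and 316 in L2d13 set 2, against 168, 203 and 249.3 in WT set 2. In set 4 these were 212, 245 and 309 in L2d13, against 132, 169 and 219 in WT. Most L2d13 libraries lay above most WT libraries, with some overlap in each set. The difference was 0.43 ± 0.10, or 1.35-fold (limma with Benjamini-Hochberg adjustment, adjusted p = 0.00225).

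Acad11 (gene 102632, chromosome 9), another member of the acyl-CoA dehydrogenase family, had a lowest, median and highest FPKM of 100.8, 169 and 199.6 in L2d13 set 2, against 44.3, 119 and 160.3 in WT set 2. The set 4 values were 96.1, 139 and 169.6 in L2d13, against 40.7, 68.4 and 159 in WT. The WT libraries spread widely in each set and reached into the L2d13 range. The difference was 0.74 ± 0.21 (limma with Benjamini-Hochberg adjustment, adjusted p = 0.00951). The short-chain dehydrogenase Acads had 0.28 ± 0.14 and the short and branched-chain dehydrogenase Acadsb 0.03 ± 0.10, neither of them called.

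Hadha (gene 97212) and Hadhb (gene 231086), both on chromosome 5, encode the alpha and beta subunits of the mitochondrial trifunctional protein, which carries out the remaining steps of the spiral for long chains, and they rose together. Hadhb had a lowest, median and highest FPKM of 125, 201 and 245 in L2d13 set 2, against 65.1, 119.6 and 162 in WT set 2. Set 4 gave 119, 145 and 200.4 in L2d13, against 46.3, 75.6 and 159 in WT. In each set a single library made the overlap: L2d13 replicate 3 lay inside the WT range of set 2, and WT replicate 8 inside the L2d13 range of set 4. The difference was 0.84 ± 0.18, or 1.79-fold (limma with Benjamini-Hochberg adjustment, adjusted p = 0.00128).

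Hadha had 125, 169 and 205 FPKM as its lowest, median and highest values in L2d13 set 2, against 59.8, 114 and 148 FPKM in WT set 2. For set 4 the values were 104, 122 and 174 in L2d13, against 54.6, 77.4 and 148 in WT. The overlap was wider than for Hadhb, and in each set the L2d13 median lay well above the WT median. The difference was 0.64 ± 0.16, or 1.56-fold (limma with Benjamini-Hochberg adjustment, adjusted p = 0.00362). Within a library, the ratio of Hadhb to Hadha FPKM had a median of 1.17 (0.999 to 1.24) in L2d13 and 1.021 (0.842 to 1.13) in WT, given without a test.

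Both genes start from the same stretch of chromosome 5 and are read in opposite directions. The 272 bases between their starts (GRCm38.p6, RefSeq, chr5:30154981-30155252, plus strand, with Hadha leaving to the left and Hadhb to the right) are shown because the 2 genes moved together. Capitals mark the 228 bases that lie in the 300-base promoter windows of both.
Hadha-Hadhb: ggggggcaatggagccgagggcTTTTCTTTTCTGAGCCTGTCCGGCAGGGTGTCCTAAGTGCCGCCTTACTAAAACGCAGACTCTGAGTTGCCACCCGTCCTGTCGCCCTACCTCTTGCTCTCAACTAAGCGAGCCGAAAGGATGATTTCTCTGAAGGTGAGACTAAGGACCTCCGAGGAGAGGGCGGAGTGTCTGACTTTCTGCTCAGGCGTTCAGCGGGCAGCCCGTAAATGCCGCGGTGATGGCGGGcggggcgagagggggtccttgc

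The corresponding enzymes for shorter chains were not called. Hadh, the hydroxyacyl-CoA dehydrogenase for medium and short chains, averaged 146 ± 25.7 FPKM in L2d13 and 134.5 ± 18.6 FPKM in WT, and Acaa2, the matrix thiolase, averaged 563 ± 72.1 FPKM in L2d13 and 510.0 ± 112 FPKM in WT (SD, n = 12 each). Their differences were 0.12 ± 0.09 and 0.17 ± 0.11. When the members were sorted by chain length, a grouping made after their values were seen, all 7 of entry and the long-chain spiral were called higher (Cpt1a, Slc25a20, Cpt2, Acadvl, Acadl, Hadha, Hadhb), against 1 of 5 of the medium, short and branched-chain spiral (Acadm, against Acads, Acadsb, Hadh and Acaa2). Of all tested genes 25.9% were called higher. The long-chain synthetases Acsl1 and Acsl5 and the carnitine importer Slc22a5, none of them called, are in neither grouping. The medians were 0.40 and 0.17, and their difference was not tested. Without the 7 libraries the counts were 4 of 7 and 1 of 5, and under either other scaling 5 of 7 and 1 of 5.

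Unsaturated fatty acids need auxiliary enzymes. Decr1 (gene 67460, chromosome 4), the mitochondrial dienoyl-CoA reductase, had a lowest, median and highest FPKM of 82.3, 107 and 116 in L2d13 set 2, against 40.3, 69.6 and 89.7 in WT set 2. The same values in set 4 were 70.3, 78.2 and 109 in L2d13, against 42.8, 57.6 and 79.8 in WT. In set 2 the lowest L2d13 library, replicate 3, was the one within the WT range, and in set 4 the overlap was wider. The difference was 0.57 ± 0.12, or 1.48-fold (limma with Benjamini-Hochberg adjustment, adjusted p = 0.000957), and Decr1 and Cpt1a were the members called within each set as well. The enoyl-CoA isomerase Eci1 averaged 176 ± 27.9 FPKM in L2d13 and 151 ± 22.3 FPKM in WT (0.21 ± 0.09), and its relative Eci2 averaged 219 ± 22.7 FPKM in L2d13 and 197 ± 42.3 FPKM in WT (0.17 ± 0.10; SD, n = 12 each). Neither was called over both sets.

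Of the 3 genes that hand electrons on, Etfdh rose, and Etfa and Etfb, the subunits of the flavoprotein it accepts them from, were not called on all libraries as deposited. With a term for the length trend of each library Etfb was called higher as well (0.23 ± 0.08, limma with Benjamini-Hochberg adjustment, adjusted p = 0.0302). Etfdh (gene 66841, chromosome 3), the dehydrogenase that passes electrons to ubiquinone, had a lowest, median and highest FPKM of 90.9, 192 and 221 in L2d13 set 2, against 50.8, 133 and 179 in WT set 2. In set 4 these were 124, 179 and 212 in L2d13, against 46.5, 84.2 and 169.9 in WT. L2d13 set 2 replicate 3 lay far below the other L2d13 libraries, and the highest WT library of each set came close to the L2d13 median. The difference was 0.79 ± 0.21, or 1.72-fold (limma with Benjamini-Hochberg adjustment, adjusted p = 0.0073). Etfa averaged 211.5 ± 18.8 FPKM in L2d13 and 196 ± 19.4 FPKM in WT, and Etfb 516 ± 100.5 FPKM in L2d13 and 485 ± 111 FPKM in WT (SD, n = 12 each).

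Both ketone genes rose. Acat1 (gene 110446, chromosome 9), which condenses acetyl-CoA to acetoacetyl-CoA, had a lowest, median and highest FPKM of 105, 157 and 179 in L2d13 set 2, against 68.8, 118 and 136 in WT set 2. The set 4 values were 114, 117 and 147 in L2d13, against 75.5, 105 and 115 in WT. The groups of set 4 touched at their edges, and in set 2 L2d13 replicate 3 was the low library of its group. The difference was 0.38 ± 0.11 (limma with Benjamini-Hochberg adjustment, adjusted p = 0.00878). Bdh1 (gene 71911, chromosome 16), which reduces acetoacetate to beta-hydroxybutyrate, had 60.5, 79.6 and 113 FPKM in L2d13 set 2, against 40.3, 64.6 and 93.5 in WT set 2, and 47.7, 63.1 and 75.1 in L2d13 set 4, against 34.1, 43.6 and 75.9 in WT set 4. Its groups overlapped over most of their range, and the difference was 0.39 ± 0.14 (limma with Benjamini-Hochberg adjustment, adjusted p = 0.0353), a call that ended when any of 9 single libraries was left out.

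Pdk4 (gene 27273, chromosome 6) was lower in L2d13. It encodes the pyruvate dehydrogenase kinase that keeps pyruvate out of the citric acid cycle when fat is burned, and it is a fasting-induced gene of liver. Its lowest, median and highest FPKM were 5.27, 10.9 and 14.7 in L2d13 set 2, against 8.44, 16.6 and 64.55 in WT set 2. In set 4 they were 3.10, 5.65 and 18.5 in L2d13, against 8.04, 12.5 and 53.1 in WT. The high WT values were those of set 2 replicate 2 and set 4 replicate 8, and the other 5 WT libraries of set 4 lay within the L2d13 range. Each of the 12 L2d13 libraries was under the WT mean within its set, and the difference was -0.99 ± 0.31, or 0.503-fold (limma with Benjamini-Hochberg adjustment, adjusted p = 0.019). Within set 2 it was -0.98 ± 0.45, and the set 4 difference was another -0.02 ± 0.64 away; neither set passed the test alone (limma adjusted p = 0.144 in set 2 and 0.142 in set 4). Leaving out each library in turn gave differences between -1.11 and -0.82, all of them called. Ucp2, an inner-membrane carrier also linked to fuel choice, had 0.26 ± 0.15 and was not called.

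The 250 bases before the Pdk4 start (GRCm38.p6, RefSeq, chr6:5496279-5496528, minus strand) are shown because Pdk4, a known PPARA target, was the member that fell. The hexamer AGGTCA is in neither strand of this stretch, so it has no capitals. Of 27 promoter windows of members 3 held the hexamer, against 16.3% of all 32851 windows. Its part in the direction of change was not tested.
Pdk4: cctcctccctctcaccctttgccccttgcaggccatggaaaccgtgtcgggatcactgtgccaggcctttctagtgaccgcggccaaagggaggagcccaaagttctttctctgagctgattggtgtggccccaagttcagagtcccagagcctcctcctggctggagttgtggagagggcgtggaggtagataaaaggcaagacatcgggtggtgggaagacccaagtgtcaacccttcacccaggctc

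**Figure D3:**
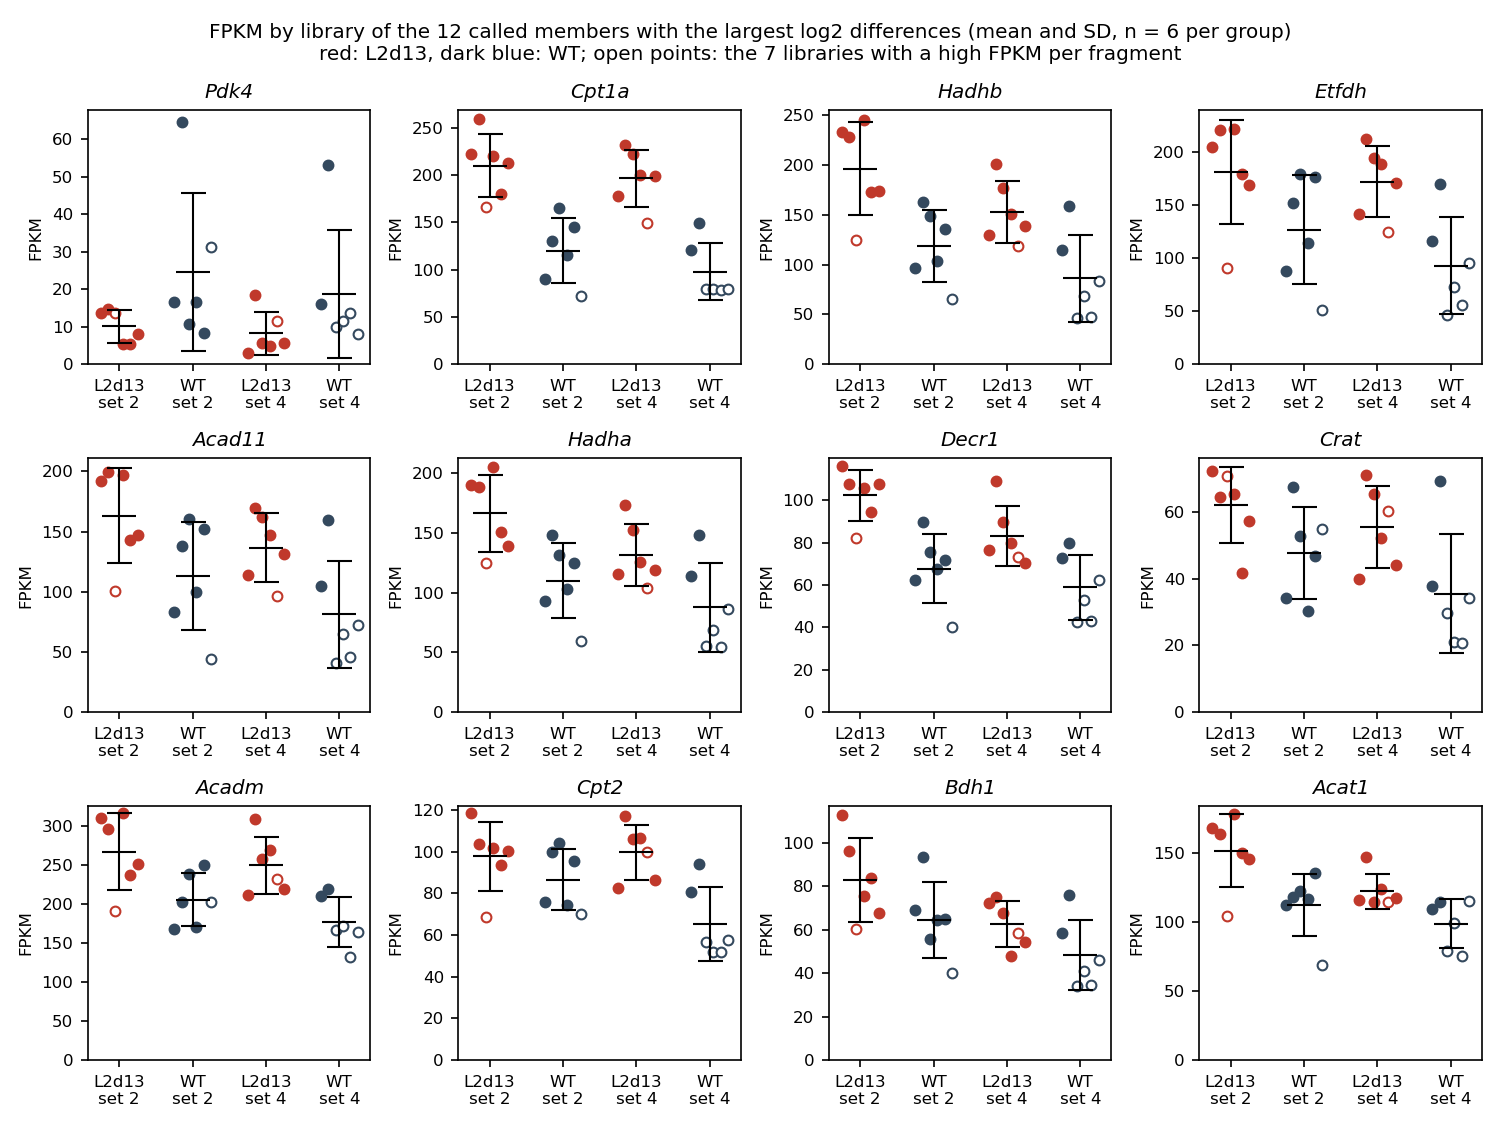
FPKM (y axis, linear from 0) of the 12 called members with the largest log2 differences, with 1 point per library, horizontal bars at the mean and whiskers for the SD (n = 6 per group); L2d13 is red, WT dark blue, and open points are the 7 libraries in which 1 fragment was worth most. In Cpt1a every L2d13 point of set 2 is above every WT point of set 2, and in Pdk4 the WT points at 64.55 and 53.1 stand far above the rest.

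The promoter table held 27 windows of 25 members, of 300 bases each. On both strands AGGTCA was found in 3 of the 27 (Acadm, Acadvl and Cpt1a), against 16.3% of all 32851 windows in the table. The full PPAR element made of such hexamers (0.0396% of all windows) was in none of them, and neither were the estrogen-related receptor element TCAAGGTCA (0.423%, itself holding AGGTCA), the cAMP element TGACGTCA (1.79%), the E-box CACGTG (7.15%) and the ATF4 with C/EBP element TGATGNAAT (0.965%). These counts describe the letters of the windows.

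Within set 2, 3 members were called higher, against 13% of all tested genes, and none lower, against 2.13%: Cpt1a (0.84 ± 0.19), Decr1 (0.62 ± 0.17) and Acadl (0.42 ± 0.11). By unadjusted limma p-values 10 members were under 0.05 there, as were 3191 of all 10532 tested genes. Within set 4, 9 were called higher, against 10.3%, and none lower, against 2.97%. They were Cpt1a (1.03 ± 0.19), Etfdh (0.99 ± 0.30), Hadhb (0.93 ± 0.26), Crat, Cpt2, Decr1, Acadm, Eci2 and Acadvl. The unadjusted count was 17, against 3146 of all 10532 tested genes. With each library left out in turn the members called ran between 3 and 8 in set 2 and between 2 and 14 in set 4. In set 4 they were 14 without WT replicate 8 and 2 without L2d13 replicate 8 or WT replicate 9 or 11. The sets were not shown to differ: limma called no member for the genotype difference in set 4 minus that in set 2, where 0.152% of all genes were called. An unadjusted limma p under 0.05 was reached by 2 members, against 747 of all 10532 tested genes. These 2 members were Cpt2 (0.46 ± 0.22) and Eci2 (0.46 ± 0.19), chosen here after their values were seen.

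No member was called by limma between set 4 and set 2 of L2d13, against 6.06% of all genes, nor between set 4 and set 2 of WT, against 0.19%. In each of these comparisons 5 members had an unadjusted limma p under 0.05. Of all 10532 tested genes 2460 did in L2d13 and 852 in WT. On all libraries as deposited, 25 of the 30 differences in L2d13 and 27 of the 30 in WT were negative. The medians were -0.18 and -0.22, against -0.15 and -0.08 over all tested genes, whose share of negative differences is not given here. Without the 7 libraries they were -0.23 in L2d13 and 0.03 in WT, against -0.12 and 0.08 over all genes. With median-of-ratios scaling they were -0.017 in L2d13 and -0.13 in WT, against -0.014 and -0.005. Single libraries stood out over many members. L2d13 set 4 replicate 8 and WT set 4 replicate 8 each had the highest FPKM of their group in 22 of 30 members. L2d13 set 2 replicate 3 had the lowest of its group in 19, WT set 2 replicate 6 in 17 and WT set 4 replicate 11 in 16. Over all 24 libraries the highest value was 1.5 times the lowest for Etfa and 20.8 times for Pdk4, the ends of the range among members.

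Without the 7 libraries of high fragment value, 9 members were called higher, against 14.9% of all 10277 genes then tested, and 1 lower, against 5.25%. Of the 16 calls on all libraries 9 were kept, namely Cpt1a (0.71 ± 0.11), Hadhb (0.53 ± 0.14), Etfdh (0.46 ± 0.14), Decr1, Acadm, Acadl, Acat1, Acadvl and Pdk4 (-1.35 ± 0.40), and Eci1 (0.29 ± 0.10) was added. The differences of Mlycd, Slc25a20, Bdh1, Cpt2, Crat, Hadha and Acad11 came to between 0.12 and 0.37 there and were not called. Only 2 WT libraries of set 4 remain there, replicates 7 and 8. Of these, replicate 8 had the highest FPKM of its full group in 22 of 30 members. Within that set no member was called by limma (1.75% of all genes higher). An unadjusted p under 0.05 was reached by 2 members, and the share of all genes at that level is not given here. In set 2, where 1 library of each genotype is left out, the count rose to 11 (19.3% of all genes higher). They were Acsl5, Cpt1a, Acadvl, Acadl, Acadm, Hadha, Hadhb, Eci1, Decr1, Etfdh and Acat1.

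A term for the length trend of each library, an alternative added after the data were seen, gave 15 members higher, against 25.9% of all genes, and 1 lower, against 4.43%. Slc25a20 and Bdh1 were no longer called with it, and Eci1 and Etfb were called in addition. It gave 11 higher in set 2 (20.8% of all genes) and 2 in set 4 (5.68%), which were Cpt1a and Cpt2. Between set 4 and set 2 of L2d13, 3 members were called lower in set 4 with that term (11.5% of all genes), Hadha, Hadhb and Acat1, and 3 without the 7 libraries (8.52%), Acsl5, Hadh and Acat1.

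Scaling mattered as well. With median-of-ratios scaling 10 members were higher, against 12.3% of all genes, and 2 lower, against 10.4%. With quantile normalization 11 were higher, against 12.4%, and 2 lower, against 10.2%. Acot13 was the added lower call under each of them. Members called on all libraries, without the 7 and under both scalings were 8: Cpt1a, Hadhb, Etfdh, Decr1, Acadm, Acadvl and Acadl higher, and Pdk4 lower.

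**Figure D4:**
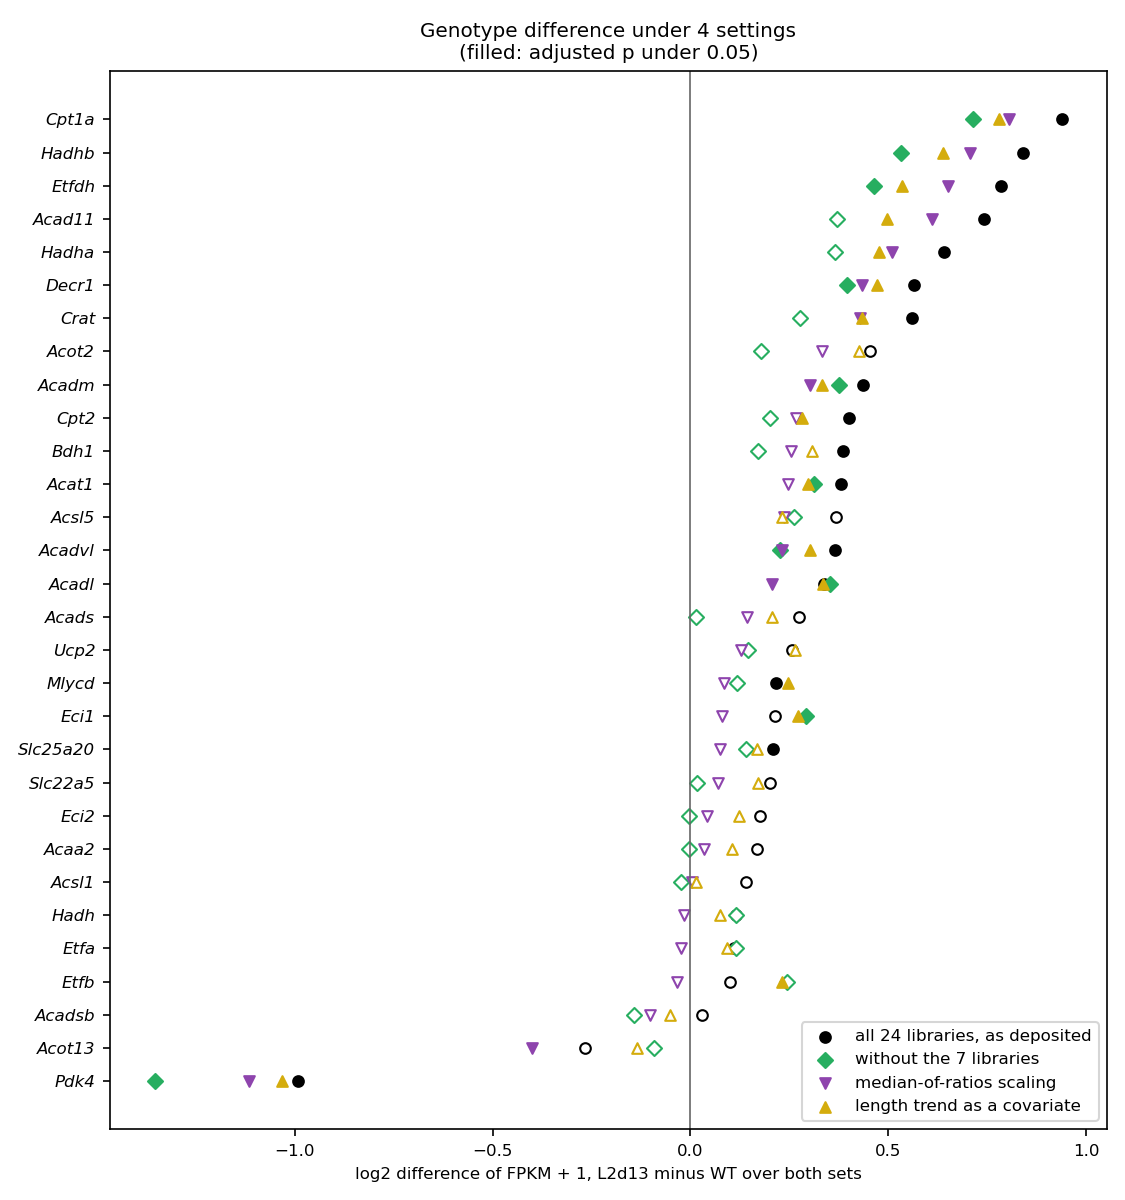
The log2 difference of FPKM + 1, L2d13 minus WT over both sets (x axis), of each of the 30 members on all libraries (black circles), without the 7 libraries (green diamonds), with median-of-ratios scaling (purple triangles) and with the length term (yellow triangles), filled where the adjusted p was under 0.05. Cpt1a stays between 0.71 and 0.94 and Pdk4 between -1.35 and -0.99, while Eci2, Acaa2, Acsl1, Hadh, Etfa, Etfb and Acadsb lie on both sides of 0.

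Related genes outside the 30 were read from 5 lists, with the same test. Counts on all libraries as deposited stand against 25.9% of all tested genes higher and 4.86% lower. The medians stand against 0.12 over all tested genes. With median-of-ratios scaling the shares were 12.3% and 10.4%, with quantile normalization 12.4% and 10.2%, and without the 7 libraries 14.9% and 5.25%. Of 41 other tested genes of mitochondrial oxidation and ketone handling, 14 were higher and 4 lower in L2d13, with a median difference of 0.15 (6 and 5 with median-of-ratios scaling). Those with the smallest p were Acad12 (0.84 ± 0.14), Etfrf1, a regulator of the electron transfer flavoprotein (0.56 ± 0.09), Bdh2 (-0.67 ± 0.14) and the CoA hydrolase Nudt19 (0.40 ± 0.09).

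Of 28 regulators, 6 were higher and 1 lower, with a median of 0.07 (2 and 2 with median-of-ratios scaling), no more than the shares over all genes. Foxo1, a transcription factor that insulin restrains, fell by 0.68 ± 0.13 on the log2 scale, Acacb, which makes malonyl-CoA at mitochondria, rose by 0.60 ± 0.13, the clock repressor Nr1d1 by 1.44 ± 0.40 and the PPARA partner Rxra by 0.39 ± 0.12. Ppara itself averaged 35.7 ± 8.55 FPKM in L2d13 and 39.4 ± 10.4 FPKM in WT (SD, n = 12 each) and was not called.

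Of 28 peroxisomal and microsomal PPARA target genes, 14 were higher and 2 lower, with a median of 0.35 (11 and 2 with median-of-ratios scaling, 8 and 1 without the 7 libraries). Cyp4a10, a fatty acid hydroxylase, led by p with 1.07 ± 0.14, followed by the peroxisome assembly gene Pex16 (0.39 ± 0.06), the fatty acid transporter Slc27a1 (0.84 ± 0.15) and the peroxisomal thiolase Acaa1a (0.54 ± 0.10). Angptl4, a lipase inhibitor and also a known PPARA target, was lower in L2d13 like Pdk4 (-0.47 ± 0.13); it is named here after its value was seen.

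Of 34 genes of mitochondrial content and the citric acid cycle, 24 were higher and none lower by limma, with a median of 0.35 (14 with median-of-ratios scaling, 19 with quantile normalization and 18 without the 7 libraries, with none lower). By p, Dlst (0.69 ± 0.08), Idh3a (0.66 ± 0.09) and the outer-membrane channel Vdac2 (0.33 ± 0.06) came first. Of 9 tested genes of pyruvate dehydrogenase control 4 were higher, with a median of 0.19: Pdk2 (0.37 ± 0.11), a kinase of the same family as Pdk4, and the subunits Pdhb, Dld and Dlat. With median-of-ratios scaling limma called none of these 9, with 2 at an unadjusted p under 0.05, and with quantile normalization it called 1. The share of all genes at that unadjusted p is not given here. The median of the 30 members, 0.31, thus lay beside those of the PPARA target list and the mitochondrial list, and its difference from them was not tested.

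**Figure D5:**
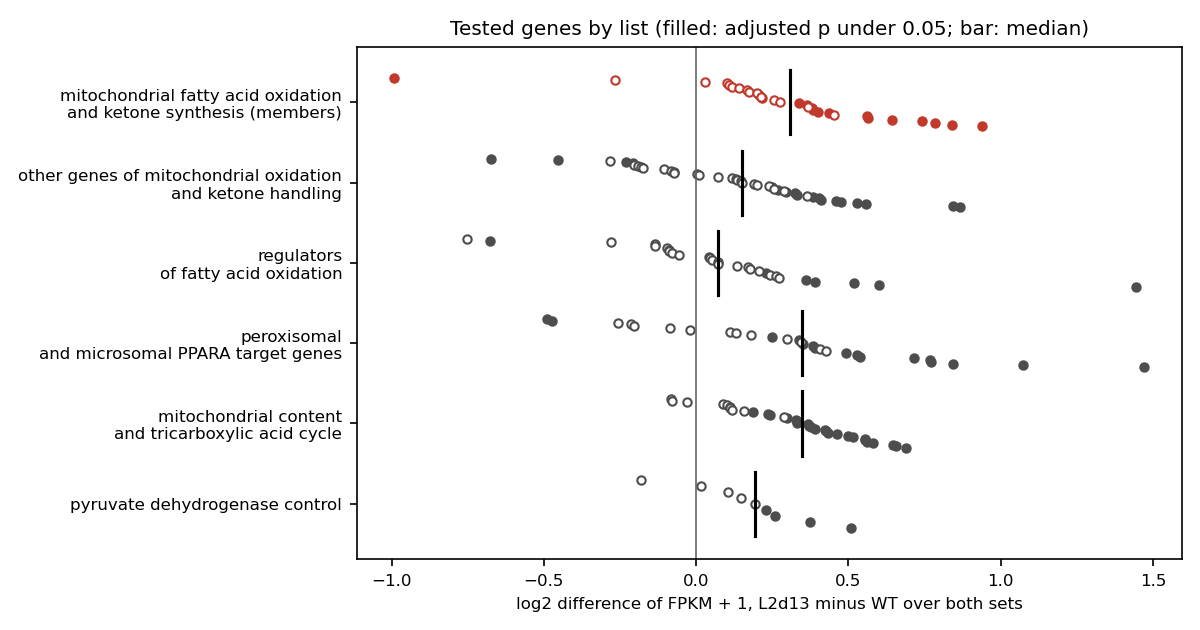
The log2 difference of FPKM + 1, L2d13 minus WT over both sets (x axis), of each tested gene in the 30 members (red) and in 5 related lists (grey), filled where the adjusted p was under 0.05, with a black bar at the median of each list. The medians run between 0.07 for the regulators and 0.35 for the PPARA target and mitochondrial lists.

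Markers of other liver cells were read in the same way, again against 25.9% of all tested genes higher and 4.86% lower. Of 10 Kupffer cell and macrophage markers 3 were higher in L2d13 and none lower by limma, with summed FPKM of 77.2 to 378 in L2d13 and 49.1 to 262 in WT. Of 8 markers of sinusoidal endothelium 4 were higher, with sums of 47.1 to 248 in L2d13 and 37.1 to 134 in WT, and of 10 markers of stellate cells and fibroblasts 2 were, with sums of 52.0 to 208 in L2d13 and 54.9 to 119 in WT. Of the 8 hepatocyte markers, Cps1 was higher and Ttr lower. Of 2 tested white fat markers Fabp4 was higher and Cfd was not called. Of 3 tested brown fat markers Elovl3 and Cox7a1 were lower and Ppara was not called. Of 5 tested erythroid genes Alas2 was lower. The globin genes Hba-a1 (-0.03), Hba-a2 (0.05), Hbb-bs (0.02) and Hbb-bt (-0.16) were not called. The 6 exocrine pancreas markers reached a sum of 126 FPKM in 1 L2d13 set 2 library, with at most 8.01 FPKM in WT. The part of all these in the differences of the members was not tested. Markers of skeletal muscle, which also burns much fat, were near 0: the 8 summed to 0.390 to 2.49 FPKM in L2d13 and 0.120 to 1.92 FPKM in WT. Ucp1, which defines brown fat, averaged 0.00833 FPKM in L2d13 and was listed at 0 in every WT library. The 5 measured brown fat markers together were not near 0, with sums of 92.2 to 393 FPKM in L2d13 and 238 to 631 FPKM in WT. Among them Elovl3 had the highest mean, 200 FPKM in L2d13 and 385 FPKM in WT.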

How the data were processed

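The deposited table holds FPKM for 18171 genes in 24 liver libraries, made by the authors and used as deposited, with 2 decimals; the tools HISAT, Bowtie2 and RSEM, with no version or role, and the build GRCm38.p5 are named per the submitters' processing notes. TRIzol was used to obtain total RNA and a BGISEQ-500 instrument to sequence it, per the labels' protocols. No read totals can be had from FPKM, so depth is unknown and no counting interval is given. All 24 columns belonged to a sample, and no pair of libraries was identical. Symbols came from RefSeq by gene ID (18040 matched, 131 did not), and transcript lengths from GENCODE M21.

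The filter kept 10532 genes that reached an FPKM of 1 in 6 or more libraries. Values of log2(FPKM + 1) were fitted in limma 3.58.1 (R 4.3.3) with variances that follow the mean. Two-sided p-values were adjusted by Benjamini-Hochberg across all tested genes, with calls at an adjusted p under 0.05. Genotype over both sets came from a fit with terms for set and genotype, and the other contrasts from a fit of 4 group means. The worth of 1 fragment came from 173 low genes, where 88.6% of the values were whole steps to within 0.2 of a step; its settings were settled after library values were seen, and the cut at 2% is not a sharp one. The procedure was also run on simulated data, with noise drawn independently for each gene and library. The simulation held no length trend, scaling shift or outlying library, so it does not test the effect of those. Other settings are pseudocounts, filters, scalings, robust moderation, a replicate block, a length term and leaving out libraries. Python 3.11.15 was used for summaries and figures, with pandas 2.3.3, numpy 2.4.6 and matplotlib 3.10.9.

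The members and lists were chosen with earlier results of these data known. Values by group are given for the 12 called members with the largest differences, and up to 4 called genes with the smallest p are named per related list; some genes of these lists are not reported here, and genes named outside this rule are Ppara, Angptl4 and the cell type markers.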

Additional observations from a re-analysis of the deposited data

Results flagged for a closer look

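Among 120 groups of 6 values (30 members in 4 groups of libraries), 11 values lay apart from the other 5 of their group by more than Dixon's 95% limit for 6 values, 0.625 of the range. Chance flags about 1 in 20 groups. In L2d13 set 2 replicate 3, Acsl5 (53.17 FPKM) and Slc25a20 (88.36) were low and Etfb (727.64) was high. In L2d13 set 4 replicate 8, Hadh (159.78) and Acat1 (147.43) were high, and in L2d13 set 4 replicate 12 Eci2 (188.66) was low. In WT set 2 replicate 6, Acaa2 (301.49) and Acat1 (68.76) were low. In WT set 4 replicate 8, Acot2 (24.31), Crat (69.22) and Pdk4 (53.09) were high. L2d13 set 2 replicate 3 and WT set 2 replicate 6 are among the 7 libraries of high fragment value, and the part of that in these values was not tested.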

How the results depend on the processing

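The genotype calls over both sets numbered 16 and stayed between 13 and 17 when each library was left out in turn; they came to 10 without the 7 libraries of high fragment value. Over all genes that setting gave 2067 calls, against 3242. The related lists gave 42 calls with median-of-ratios scaling. In set 2 the members called were 3, all higher, against 13% of all genes. They were 1 with median-of-ratios scaling (3.88% of all genes higher), 11 without the 7 libraries (19.3%) and 11 with the length term (20.8%). With each library left out, where the share of all genes is not given here, they were 3 to 8. That count was 8 without L2d13 set 2 replicate 3, 7 without WT set 4 replicate 8, and 6 without WT set 2 replicate 2 or WT set 4 replicate 9 or 11. In set 4 the members called were 9, all higher, against 10.3% of all genes. They were 5 with no filter (5.1% of all genes higher), 0 without the 7 libraries (1.75%) and 2 with the length term (5.68%). With median-of-ratios scaling 4 were higher (6.25%) and 1 lower (5.73%). With each library left out, where the share of all genes is not given here, they were 2 to 14. That count was 14 without WT replicate 8, 4 without WT replicate 10, 5 without L2d13 replicate 10, 3 without L2d13 replicate 9, and 2 without WT replicate 9 or 11 or L2d13 replicate 8. Between the sets in L2d13 they were 3 without the 7 libraries, 3 with the length term and 0 to 1 with each library left out, and in WT 0 to 1. The causes were not tested.

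Signs turned only in uncalled members: Acsl1 (-0.023), Acaa2 (-0.0047) and Eci2 (-0.0039) without the 7 libraries; Hadh (-0.017), Etfa (-0.025) and Etfb (-0.034) with median-of-ratios scaling; and Acadsb with that scaling (-0.10), quantile normalization (-0.069), without the 7 libraries (-0.14), with the length term (-0.053) and without WT set 2 replicate 6 (-0.040, in a range of -0.040 to 0.061 with each library left out). Slc25a20, Mlycd and Bdh1 also lost their call without some single libraries. With the replicate number as a block, 13 members were higher over both sets (20.3% of all genes) and 1 lower (3.73%). Within set 2 the block gave 2 higher (6.37%) and within set 4 it gave 3 higher (4.87%), with none lower. Correlations of same-numbered libraries ran between -0.604 and 0.26, so the numbers do not pair them, and the block gives no value between sets. FPKM gives no depth, so precision rests on the spread between libraries.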
